A study of Mus musculus with 16 samples.

Results

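The comparison concerned the skin of transgenic mice of the line K14deltaNB-cateninER, called D2 in the labels, and of wild-type C57BL/6 mice, both after 7 days of 4-hydroxytamoxifen. It rested on 5 of the 16 arrays of the series, chosen by what their titles give as genotype and time, with 3 transgenic arrays and 2 wild-type arrays and all probe sets of the Affymetrix Mouse Expression Set 430 A array. The other 11 arrays held transgenic skin (2 arrays at day 0 and 3 at day 1) and wild-type skin (3 arrays at each of those days). They were part of the same model fit and contributed to its estimate of spread. The RNA came from total skin, so every cell layer from cornified epidermis to the muscle under the dermis could contribute. Transgenic mice express, under the keratin 14 promoter, a β-catenin that lacks its N-terminus and is joined to the hormone-binding part of the oestrogen receptor. This fusion protein is inactive until 4-hydroxytamoxifen binds it, and the keratin 14 promoter is active in basal keratinocytes of the epidermis and the outer root sheath. Both genotypes had received the drug, no group with vehicle alone was among the samples, and the labels give no strain background for the transgenic line, so genotype and any difference of background cannot be told apart. The labels speak of mice for each transgenic array and of a single mouse for each wild-type day 7 array, and give neither ages nor the number of animals pooled.

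β-catenin is the effector of canonical Wnt signalling. Without a Wnt signal it is phosphorylated near its N-terminus and degraded, and a form without that stretch accumulates and activates genes together with the LEF and TCF factors. In skin this pathway drives the hair follicle: it starts a growth phase, called anagen, in a resting follicle, and it directs matrix cells at the follicle base into the concentric layers of the inner root sheath and the hair shaft. Resting follicles, in the phase called telogen, express almost none of the keratins of those layers.

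Of 9058 genes tested, 3669 (40.5%) differed between transgenic and wild-type skin at day 7, at an adjusted p under 0.05 in limma with Benjamini-Hochberg adjustment. Among them 1764 (19.5%) were higher and 1905 (21.0%) were lower in transgenic skin. List counts below are to be read beside these shares. Intensities were scaled to a common trimmed mean over arrays, and each difference is on the log2(intensity + 32) scale, where the added 32 understates the change of dim genes. Differences of at least 2-fold numbered 360 (3.97%) higher and 418 (4.61%) lower, those of at least 4-fold 79 and 11, and those of at least 16-fold 19 and 0. The largest effects were mostly rises, and the median difference over all tested genes was 0.01. The values of the genotypes did not overlap for 63.0% of the genes. The same comparison called 1 gene (0.0110%) at day 0 and 118 genes (1.30%) at day 1. The genotype difference at day 7 itself differed from that at day 0 for 2154 genes (23.8%), 1096 of them upward and 1058 downward, and from that at day 1 for 2658 genes (29.3%), 1286 upward and 1372 downward. Without further scaling of the deposited values the day 7 comparison called 1744 genes, 873 higher and 871 lower, and many of the list counts below were smaller, but no median of the 48 lists with a tested gene changed sign with it or with quantile normalization. A stricter filter, which tests fewer genes, brought the rises of keratin-associated proteins, matrix and placode regulators and dermal papilla genes to 9, 9 and 4, against 17, 14 and 7, and the falls of endothelial, Schwann cell and wound-type genes to 7, 2 and 2, against 11, 4 and 6. The changes from day 0 and day 1 without further scaling became 724 genes with 281 upward and 443 downward, and 821 genes with 484 upward and 337 downward.

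The day 7 arrays had trimmed means between 359 and 529, and 3′ to 5′ ratios between 0.911 and 0.949 for glyceraldehyde-3-phosphate dehydrogenase and between 1.28 and 1.48 for actin, with both genotypes in each range. Across the 9058 genes the log2 values correlated at 0.974 to 0.988 among the transgenic arrays, at 0.985 between the wild-type arrays and at 0.874 to 0.915 between genotypes. Genes are not independent replicates, so these values only describe the arrays. Transgenic replicate 3 stood apart from the other two transgenic arrays. It was the nearest of the 3 to wild type, at 0.915 and 0.914, and its position is given below for only some of the gene groups. Without it 3574 genes were called. The p-values rest on the spread within groups over all 16 arrays of the fit, with a variance trend over genes. They do not rest on the day 7 arrays alone. Nothing in the labels says whether replicates came from separate experiments, so whether that spread includes differences between experiments is not known.

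The oestrogen receptor probe set, whose gene supplies the transgene's hormone-binding part, separated the genotypes. Esr1, the oestrogen receptor α gene, read 218, 256 and 189 in transgenic skin at day 7, against 13.3 and 18.2 in wild-type skin, a difference of 2.40 ± 0.34 (SE, adjusted p = 6.3e-05 in limma). The groups did not overlap. It had been at 408 and 401 in transgenic skin at day 0, against 50.0, 23.6 and 13.4 in wild-type skin, so this probe set separated the genotypes before the drug and its difference did not change detectably by day 7 (-0.49, adjusted p = 0.51 for the change in limma). For Ctnnb1, the β-catenin gene, the brightest probe set gave 6943, 7578 and 7580.1 in transgenic skin and 5892 and 5307 in wild-type skin, a difference of 0.39 ± 0.08 (SE, adjusted p = 8.2e-04 in limma). Its other probe sets differed by 1.00 and 0.82. Without further scaling the brightest one no longer passed (adjusted p = 0.090). Which of them can bind the transgene's RNA was not determined here. Both keratins that define basal keratinocytes were bright on all 5 arrays and did not pass the test. Krt14, the keratin whose promoter drives the transgene, read 7741, 8496 and 7929 in transgenic skin, against 9051 and 7803 in wild-type skin, and Krt5, its basal partner keratin, differed by -0.12 (adjusted p = 0.39 in limma).

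The inner root sheath, the layer that moulds the growing hair, showed the largest rises in transgenic skin. Of 8 tested genes of this sheath and of the companion layer beside it 7 rose and none fell, where 19.5% of all genes rose, with a median difference of 5.01 against 0.01 over all genes. Krt25, a type I keratin of that sheath, read 8449, 9768 and 7747 in transgenic skin, against 5.16 and 2.25 in wild-type skin. All 3 transgenic arrays stood far above both wild-type arrays, which were as low as the day 0 arrays of either genotype (1.98 and 7.22 in transgenic and 2.58, 4.51 and 17.3 in wild-type skin). The difference of 7.92 ± 0.20 (SE, adjusted p = 3.0e-13 in limma) was the largest of all tested genes, and its size depends on the added 32 because the wild-type arrays lay below that value. Krt71, the type II partner of these keratins, read 9208, 11333 and 8891 in transgenic skin, against 111 and 101 in wild-type skin (6.15 ± 0.16, SE). Krt27, another type I keratin of the sheath, differed by 6.29 ± 0.33 (SE) and Krt72, a cuticle keratin of it, by 4.49 ± 0.24 (SE). Trichohyalin, the product of Tchh, is the matrix protein in which those keratins are embedded, and it read 4234, 5621 and 3835 in transgenic skin, against 81.7 and 53.8 in wild-type skin. Padi3, which converts arginines of trichohyalin to citrulline, read 2766, 3068 and 1699 in transgenic skin, against 81.5 and 82.3 in wild-type skin (4.44 ± 0.21, SE). Krt75, a keratin of the companion layer, differed by 2.36, and Gata3, a regulator of the sheath that the epidermis also expresses, by 0.15 without passing the test.

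**Figure D1:**
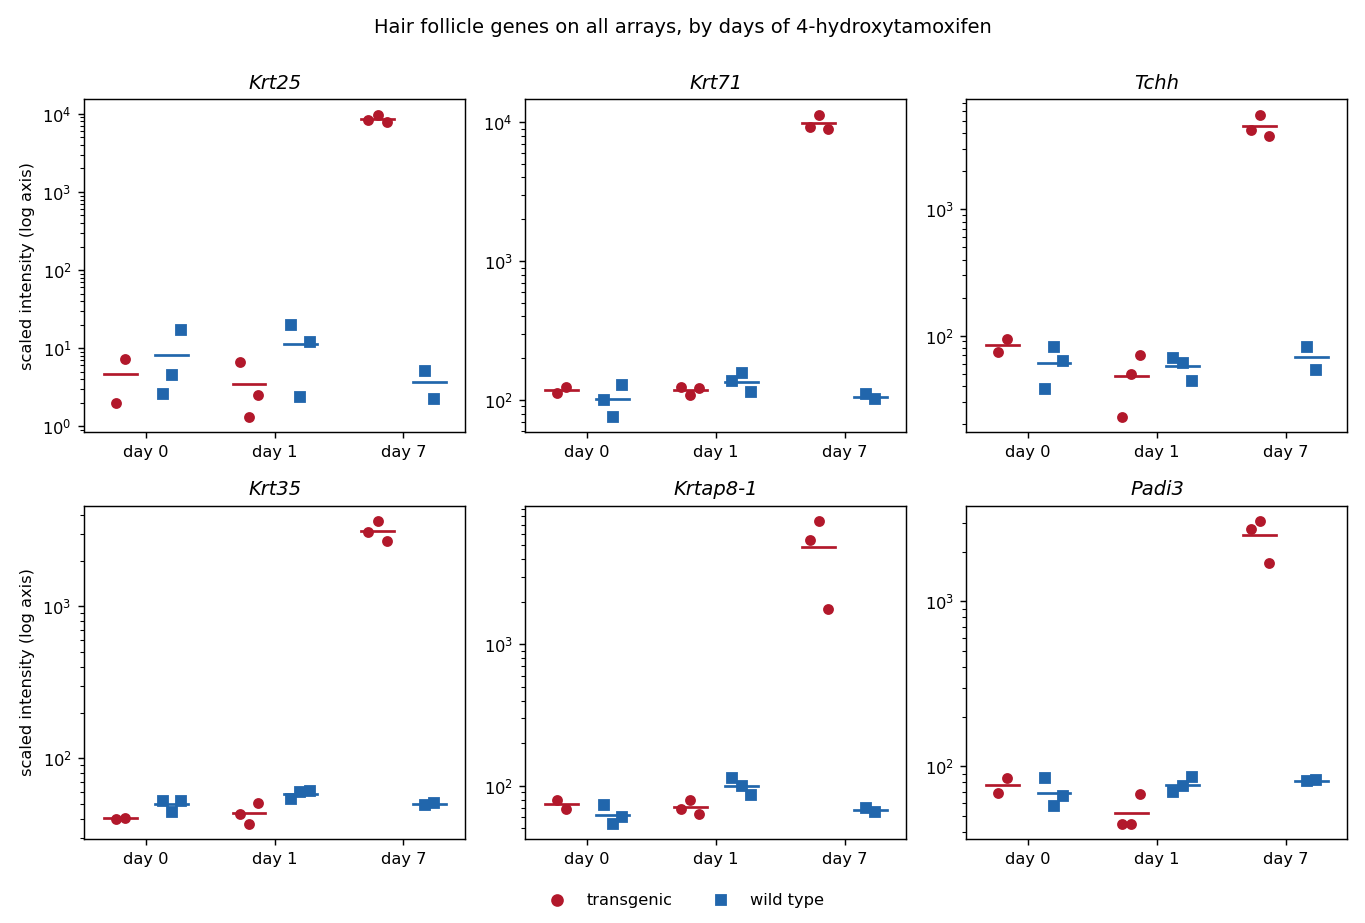
Scaled intensity of 6 hair follicle genes on all 16 arrays, on a log axis, by genotype and days of 4-hydroxytamoxifen, with a point for each array and a line at each group's mean. The genotypes lie together at day 0 and day 1, and at day 7 the 3 transgenic arrays of each gene stand above the 2 wild-type arrays.

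The promoters of the 3 genes with the largest rises are given here because the members moved together, followed by that of Mycn, the Wnt target gene with the smallest p among those whose promoter was at hand. Each runs 5′ to 3′ over 250 bases before and 50 bases after the RefSeq start on GRCm38.p6, and capitals mark CTTTGAA or CTTTGTT on either strand, letters that LEF and TCF factors can bind.
Krt25, chr11:99322902-99323201, minus strand: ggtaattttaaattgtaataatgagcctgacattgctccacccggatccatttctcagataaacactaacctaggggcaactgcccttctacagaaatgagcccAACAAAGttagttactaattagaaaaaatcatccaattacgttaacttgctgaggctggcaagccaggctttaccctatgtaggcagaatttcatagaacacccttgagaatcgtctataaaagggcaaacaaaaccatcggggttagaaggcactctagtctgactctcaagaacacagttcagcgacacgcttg
Krt27, chr11:99351069-99351368, minus strand: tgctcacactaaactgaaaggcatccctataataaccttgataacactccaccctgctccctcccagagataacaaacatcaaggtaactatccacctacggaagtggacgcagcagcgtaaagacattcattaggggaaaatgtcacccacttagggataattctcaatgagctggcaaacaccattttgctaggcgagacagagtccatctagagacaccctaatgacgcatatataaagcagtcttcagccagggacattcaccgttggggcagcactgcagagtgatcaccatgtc
Krt71, chr15:101743048-101743347, minus strand: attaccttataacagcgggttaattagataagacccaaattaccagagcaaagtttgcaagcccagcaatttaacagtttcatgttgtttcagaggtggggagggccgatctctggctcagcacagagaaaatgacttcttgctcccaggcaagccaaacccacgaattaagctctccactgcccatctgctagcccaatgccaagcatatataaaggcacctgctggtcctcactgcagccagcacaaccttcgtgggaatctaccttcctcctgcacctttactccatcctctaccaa
Mycn, chr12:12941787-12942086, minus strand: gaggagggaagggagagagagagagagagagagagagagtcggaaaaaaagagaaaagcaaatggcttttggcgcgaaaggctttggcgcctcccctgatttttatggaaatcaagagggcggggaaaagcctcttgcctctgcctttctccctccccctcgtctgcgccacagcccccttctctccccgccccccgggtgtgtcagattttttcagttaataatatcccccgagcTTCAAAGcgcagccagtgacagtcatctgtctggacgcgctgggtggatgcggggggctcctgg
The Krt25 window held 1 such run, which began 146 bases before the start and lay on the opposite strand as CTTTGTT, and the Mycn window held 1, as CTTTGAA on the opposite strand from 14 bases before the start. The letters do not occur in the Krt27 and Krt71 windows. Among all 32851 RefSeq promoters of this length, 3478 (10.6%) held at least 1 run. Among the 20 genes with the largest rises 16 matched a promoter and 5 of these held a run, and among the 20 with the largest falls it was 3 of 15. These matches are a description of letters and were not tested as binding sites. The 20 largest rises included 9 genes of chromosome 11 and 3 of chromosome 15, where the type I and type II keratin clusters lie.

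Keratins and keratin-associated proteins of the hair shaft rose almost as a whole. Of 12 tested hair shaft keratins 11 rose and none fell (median 3.66), and of 18 tested keratin-associated proteins 17 rose and none fell (median 2.85). The filter needed signal on only 2 of 16 arrays, so a gene that is on in transgenic day 7 skin alone passed it through those arrays, and these counts describe the tested members. With no filter 18 of 26 keratin-associated proteins rose. Krt35, among the first keratins made in the hair matrix and cuticle, read 3099, 3633 and 2669.9 in transgenic skin, against 49.5 and 51.0 in wild-type skin (5.26 ± 0.14, SE). Krt33a, a keratin of the shaft cortex that appears later, read 2812, 3672 and 983 in transgenic skin, against 6.67 and 3.78 in wild-type skin (5.89 ± 0.36, SE). The groups lay apart for both, while transgenic replicate 3 was close to the other transgenic arrays for Krt35 and well below them for Krt33a. Krtap8-1, a glycine- and tyrosine-rich protein of the shaft, read 5484, 7398 and 1773 in transgenic skin, against 69.3 and 65.5 in wild-type skin. Krtap3-1, a sulphur-rich one, read 1873, 2729.9 and 490.0 in transgenic skin and 8.44 and 5.04 in wild-type skin, and Krtap4-16, of the ultra-high-sulphur class, read 2354, 3868 and 343 in transgenic skin and 27.0 and 11.9 in wild-type skin. Keratin-associated proteins belong to multigene families with similar sequences, so single members may share signal.

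The transgenic arrays differed most among themselves in these shaft genes. Averaged over the 18 keratin-associated proteins, log2(intensity + 32) was 9.42 and 10.16 on transgenic replicates 1 and 2 and 7.87 on replicate 3, against 6.26 and 6.12 on the wild-type arrays. For the 12 shaft keratins it was 10.00 and 10.34 on transgenic replicates 1 and 2 and 8.93 on replicate 3, against 6.46 and 6.37 in wild-type skin. Replicate 3 was thus the lowest transgenic array for the shaft lists and still above both wild-type arrays. Krt34, Krt31, Krt86 and Krt33b, all shaft keratins, differed by 4.81, 4.44, 4.11 and 4.11 with the same low replicate 3. Krt84, a keratin of nail and of the hair cuticle, differed by 0.21 and did not pass the test.

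Other proteins of the hair cuticle and of shaft hardening were among the 20 largest rises. S100a3, a calcium-binding protein of the cuticle, read 5040.3, 5799 and 3161 in transgenic skin, against 107 and 89.8 in wild-type skin (5.13 ± 0.21, SE). Padi1, a second arginine deiminase, differed by 2.34 and Gsdma, a gasdermin of the epidermis and the follicle, by 0.72, while Tgm3, the transglutaminase of the inner root sheath and of the cornified layer, differed by 0.12 without passing the test. Gjb2, the gap junction protein connexin 26, read 6263, 6812 and 5131 in transgenic skin, against 319 and 277 in wild-type skin. Gprc5d, an orphan receptor of hard-keratin-forming cells, read 1177, 1502 and 416 in transgenic skin, against 15.9 and 25.4 in wild-type skin. Gnmt, a glycine methyltransferase, and Crym, a thyroid-hormone-binding protein, differed by 4.81 and 3.98. For the called genes among these the groups did not overlap. The choice of the 20 largest rises required this, and it held for 63.0% of all genes.

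Transcription factors of the hair matrix rose with the structural genes, by smaller amounts. Of 19 tested regulators of matrix and placode 14 rose and none fell (median 0.93). Dlx3, a homeobox factor needed for shaft and inner root sheath formation, read 1218, 1199 and 1122 in transgenic skin, against 143 and 166 in wild-type skin (2.70 ± 0.15, SE, adjusted p = 4.5e-09 in limma). Msx2, a matrix homeobox factor upstream of Foxn1, read 808, 866 and 621 in transgenic skin, against 83.7 and 102 in wild-type skin. Hoxc13, which activates shaft keratin genes, read 819, 889 and 795 in transgenic skin, against 115 and 110.2 in wild-type skin. Transgenic replicate 3 was the lowest transgenic array on all 3 genes, and the gap was small for Dlx3 and Hoxc13. Foxn1, the factor missing in nude mice, differed by 0.75, Dlx2 by 2.10, Cux1 by 1.27 and Trps1 by 0.93. Prdm1, Foxq1 and Hr, the hairless gene, did not pass the test. Lef1, the β-catenin partner most tied to the hair matrix, was below the filter and was not tested. It read 132, 111 and 109.9 in transgenic skin, against 38.9 and 28.2 in wild-type skin, and Edar, the ectodysplasin receptor of hair placodes, also untested, read 119, 112 and 110.3 in transgenic skin and 6.55 and 9.0 in wild-type skin.

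Hedgehog signalling, which follicle epithelium uses to drive its own growth and to signal to the dermal papilla, was higher at its receptor and its effectors. Of 8 tested genes 4 rose and none fell (median 0.61), where 19.5% of all genes rose and 21.0% fell. Ptch1, the Hedgehog receptor and itself a target, read 3209.9, 3427 and 2808 in transgenic skin, against 385 and 503 in wild-type skin (2.75 ± 0.15, SE, adjusted p = 3.1e-09 in limma). Gli1, a transcription factor whose level reports pathway activity, read 909.9, 997 and 890.1 in transgenic skin, against 148 and 119 in wild-type skin (2.54 ± 0.17, SE). Gli2, the main activator, and Smo, the signal transducer that Ptch1 holds in check, differed by 2.02 and 0.95. The groups lay apart on these 4 genes. Shh, the ligand, and Hhip, a ligand-binding inhibitor and target, were below the filter and untested: Shh read 95.1, 89.2 and 95.0 in transgenic skin, against 15.1 and 9.81 in wild-type skin, and Hhip 111, 118 and 91.4 in transgenic skin, against 17.3 and 11.9 in wild-type skin. The co-receptors Boc and Gas1 and the inhibitor Sufu did not pass the test.

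Targets and feedback genes of the Wnt pathway were mostly higher in transgenic skin, though unevenly. Of 20 tested 15 rose and 1 fell (median 0.70). Ccnd1, cyclin D1, read 3079.8, 2798 and 2842 in transgenic skin, against 981 and 976 in wild-type skin, and had the smallest p of the list (1.54 ± 0.09, SE, adjusted p = 1.8e-08 in limma). Its other probe sets differed by 2.07 and 2.08. Mycn, a growth-promoting transcription factor, read 796, 735 and 759 in transgenic skin, against 92.6 and 92.0 in wild-type skin (2.68 ± 0.22, SE). Of its dimmer probe sets one differed by 1.32 and one by -1.15, without passing the test (adjusted p = 0.14 over all probe sets in limma). Bambi, a decoy receptor that dampens BMP signals, read 641, 708 and 597 in transgenic skin, against 90.8 and 74.3 in wild-type skin. Lgr5, the R-spondin receptor that marks active follicle stem cells, read 853, 856 and 764 in transgenic skin, against 308 and 279 in wild-type skin (1.40 ± 0.14, SE). Sox4, Nkd2, Lgr6, Cd44, Jag1 and Rnf43 differed by between 0.63 and 1.33. Axin2, the feedback scaffold of the degradation complex, showed one of the smallest changes, with 845, 785 and 836 in transgenic skin against 664 and 688 in wild-type skin (0.27 ± 0.10, SE, adjusted p = 0.046 in limma). Its groups lay apart, but its call was lost under 11 of the alternatives tried. Vegfa, a blood vessel growth factor, was the member that fell, by 0.50. Its call was lost without transgenic replicate 1, without wild-type replicate 2, without further scaling and with probe sets averaged.

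Among Wnt ligands and receptors 8 of 18 tested genes rose and 1 fell (median 0.24), where 19.5% of all genes rose and 21.0% fell. Of this list 33 genes were on the array, and those not tested were below the filter. Wnt5a, a ligand of the dermal papilla and the inner root sheath, read 557, 468 and 412 in transgenic skin, against 99.6 and 165 in wild-type skin (1.66 ± 0.22, SE). Wnt11 and Wnt6 differed by 1.24 and 1.13, and the frizzled receptor genes Fzd1, Fzd2, Fzd7 and Fzd3 by 1.22, 0.69, 0.66 and 0.61. Ryk, a Wnt-binding receptor-like kinase, differed by 0.84, and by 0.18 without passing the test on a dimmer probe set. Wnt4, Wnt7b, Wnt10a and the co-receptors Lrp5 and Lrp6 did not pass the test, and Fzd4 fell by 0.42, a call that was lost without transgenic replicate 1, without either wild-type array and without further scaling. Of 10 secreted antagonists 4 rose and 2 fell (median 0.19). Wif1, which binds Wnt proteins outside the cell, read 299, 301 and 332 in transgenic skin, against 58.7 and 51.2 in wild-type skin. Sfrp1 and Sostdc1, of which Sostdc1 is also a BMP antagonist, differed by 1.17 and 1.15, while Dkkl1 fell by 1.06 and Sfrp4 by 0.60, and the 2 falls became 1 without wild-type replicate 2 or without further scaling. Dimmer probe sets of Sfrp1 differed by 1.53 and 0.03, the latter without passing the test. Of the antagonists 40% were higher and 20% lower, beside 19.5% and 21.0% over all genes. The lower share was thus near that of all genes.

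BMP signalling, which restrains resting follicle stem cells and promotes differentiation in the matrix, had 11 of 19 tested genes higher and 1 lower (median 0.41). Over all genes 19.5% were higher and 21.0% lower. Without wild-type replicate 2 the 11 became 7, and without further scaling the 1 was lost. The ligands Bmp4 and Bmp6 differed by 1.07 and 0.64, the target genes Id3 and Id4 by 0.84 and 1.16, and the inhibitory Smads, Smad6 and Smad7, by 1.25 and 0.80. Smad6 read 459, 513 and 376 in transgenic skin, against 177 and 160.5 in wild-type skin. Notch signalling, which separates the matrix lineages, had 5 of 14 tested genes higher and none lower (median 0.16), and the 5 became 3 without wild-type replicate 2 or without further scaling. Notch1 read 2342, 2129 and 2327 in transgenic skin, against 1294 and 1121 in wild-type skin (0.89 ± 0.10, SE). A dimmer Notch1 probe set differed by 0.27 without passing the test. The Notch ligand Jag1 and target Heyl differed by 0.77 and 0.91. FGF and EGF family genes split, with 7 of 15 higher and 5 lower (median 0.29). The 5 that fell were all ligands, Btc, Ereg, Egf, Fgf18 and Fgf1. Btc, betacellulin, read 497, 490.3 and 485 in transgenic skin, against 1044 and 1187 in wild-type skin, and Fgf18, a signal of the resting follicle, read 47.6, 47.5 and 41.0 in transgenic skin, against 109.6 and 106 in wild-type skin. The 7 higher calls became 3 without further scaling, 2 without wild-type replicate 1, and 4 without wild-type replicate 2 or without transgenic replicate 1.

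**Figure D2:**
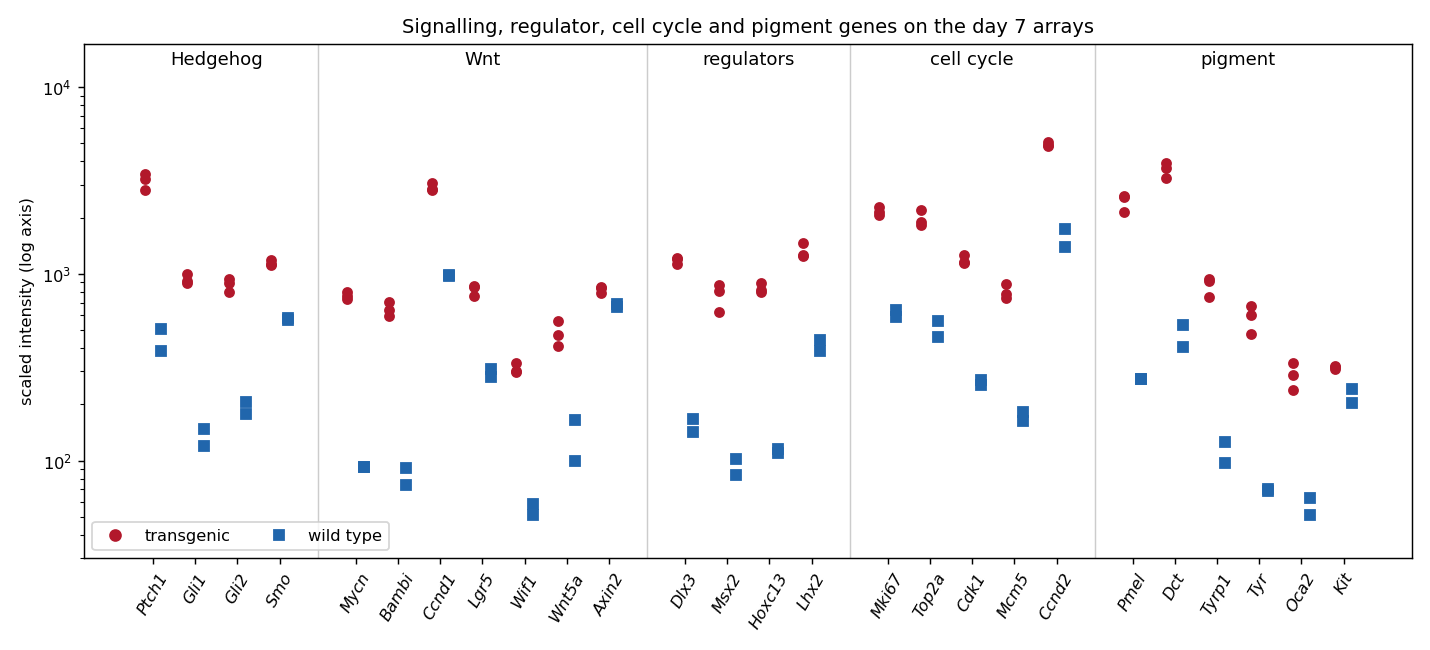
Scaled intensity on the 5 day 7 arrays, on a log axis, of genes of Hedgehog and Wnt signalling, matrix regulators, the cell cycle and pigment formation, with circles for the 3 transgenic arrays and squares for the 2 wild-type arrays. The groups lie apart on every gene drawn, widely for Ptch1, Gli1, Mycn and Dlx3 and narrowly for Axin2 and Kit.

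Most cell cycle genes rose. All 24 tested genes of DNA replication rose in transgenic skin (median 1.19), as did 26 of 28 tested genes of mitosis and the spindle (median 1.38). Mki67, the Ki-67 antigen of cycling cells, read 2289.6, 2133 and 2063 in transgenic skin, against 586 and 643 in wild-type skin (1.76 ± 0.14, SE, adjusted p = 4.0e-07 in limma). Mcm5, a subunit of the replicative helicase, read 743, 775 and 881 in transgenic skin, against 163 and 183 in wild-type skin, and Cdk1, the mitotic kinase, 1146, 1158 and 1255 in transgenic skin, against 253 and 269 in wild-type skin. The transgenic arrays were close together on these genes, and replicate 3 was the highest of them for Mcm5 and Cdk1. Pttg1, the securin gene, was the mitotic gene that fell, by 0.52, a call lost without wild-type replicate 1 or without further scaling. Ttk, a checkpoint kinase, did not pass the test. Among 17 Myc family and cyclin-dependent regulators 9 rose and none fell (median 0.37). Ccnd2 differed by 1.64, Cdk4 by 1.14, Ccne1 by 0.85 and Myc by 0.37. The call of Myc was lost without transgenic replicate 1, without wild-type replicate 2 and without further scaling. The cyclin-dependent kinase inhibitors Cdkn1a, Cdkn1b, Cdkn1c, Cdkn2b and Cdkn2c did not pass the test. The wild-type arrays also differed from day 0. For 20 of the 28 mitotic genes both wild-type day 7 arrays stood above all wild-type day 0 arrays, while for 18 of the 24 replication genes they stood below them. In transgenic skin 26 of the 28 and 24 of the 24 stood above day 0.

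Pigment genes of melanocytes rose strongly, while markers of the lineage itself did not all follow. Of 12 tested genes 10 rose and none fell (median 1.81). The lowest difference in the list, -0.54, did not pass the test. Under quantile normalization, in a fit of the compared groups alone and without transgenic replicate 3, 1 member was called lower. Pmel, the fibril protein of melanosomes, read 2597, 2591 and 2135 in transgenic skin, against 274 and 274 in wild-type skin (3.01 ± 0.20, SE). Dct, an enzyme of eumelanin synthesis, read 3693, 3928 and 3265 in transgenic skin, against 533 and 406 in wild-type skin. Tyr, tyrosinase, the rate-limiting enzyme, read 670.4, 603 and 478 in transgenic skin, against 70.3 and 68.9 in wild-type skin, and Tyrp1 differed by 2.65. All 3 transgenic arrays were high, with replicate 3 lowest for Pmel, Dct and Tyr. Kit and Mitf, the receptor and the master regulator of the lineage, differed by 0.46 and 0.40. The call of Kit was lost without wild-type replicate 1 or without further scaling. Sox10, a neural crest factor of melanocytes and Schwann cells, differed by -0.03 without passing the test. In whole skin fewer cells of a type and less RNA per cell cannot be told apart, and the same holds for more of either.

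Genes of the bulge, the resting stem cell niche, moved both ways, with 7 of 17 higher and 4 lower (median 0.24). The share higher was 41.2%, against 19.5% over all genes, and the share lower was 23.5%, near the 21.0% over all genes. Lhx2, a stem cell factor that is also active in the growing bulb, read 1454, 1241 and 1255 in transgenic skin, against 442 and 384 in wild-type skin, and Tbx1 and Sox9 differed by 1.21 and 0.79. Cd34, a surface marker of bulge cells that endothelium and fibroblasts also carry, read 1280.4, 990.1 and 1517 in transgenic skin, against 2627 and 2873 in wild-type skin (-1.12 ± 0.17, SE). Krt15, a keratin of the bulge and the basal layer, read 6947, 6831 and 7437 in transgenic skin, against 10338 and 8666 in wild-type skin (-0.42 ± 0.12, SE). Its call was lost without wild-type replicate 1 or without further scaling. In 14 genes of basal epidermis and its anchoring 3 rose and 4 fell (median -0.09). These shares, 21.4% and 28.6%, were near the 19.5% and 21.0% over all genes. Col17a1, the hemidesmosome collagen, fell to 2607, 2557 and 2429.7 in transgenic skin, against 4869 and 4136 in wild-type skin. Trp63, the basal lineage factor, differed by 0.48, a call lost without wild-type replicate 2 or without further scaling. The 4 falls became 1 without further scaling, and likewise without transgenic replicate 1, transgenic replicate 2 or wild-type replicate 1, and 2 without wild-type replicate 2. Among desmosome and cadherin genes 4 of 12 rose and none fell, and the 4 became 2 without further scaling. Cdh3, the P-cadherin of the hair matrix, read 494, 549.6 and 469.9 in transgenic skin, against 73.2 and 159 in wild-type skin, while Cdh1, E-cadherin, did not pass the test.

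Genes of the interfollicular differentiated layers were more often lower. Of 20 tested genes of suprabasal epidermis and cornified envelope 2 rose and 10 fell (median -0.30). Over all genes 19.5% rose and 21.0% fell. Apart from Krt2, described with the largest falls, the called falls were modest, between -0.30 for Asprv1 and -0.71 for Lce1b, and included Krt1, Lor, Hrnr and Calm4. Casp14, the caspase of cornification, and Flg, filaggrin, were the 2 that rose, by 1.22 and 0.71, and Krt10 did not pass the test. Keratins and stress proteins of wounded or thickened epidermis split, with 4 of 14 higher and 6 lower. Krt17, also a keratin of the outer root sheath and placode, read 4332, 5132 and 3613 in transgenic skin, against 2259 and 2160.5 in wild-type skin, and Krt6a differed by 0.82. Krt16 read 122, 199 and 143 in transgenic skin, against 584 and 447 in wild-type skin, and Krt6b differed by -1.39. Called members of this list thus differed in direction. The median of the list was -0.45 and became 0.19 with a stricter filter. Its 4 rises became 1 without wild-type replicate 2, and its 6 falls became 3 without wild-type replicate 1. Barrier lipid genes had 1 of 13 higher and 5 lower, including the lipoxygenase gene Alox12b (-1.45 ± 0.16, SE), and sebaceous gland genes 1 of 20 higher and 7 lower, including Dgat2, the enzyme of triglyceride synthesis (-0.84 ± 0.14, SE). Without further scaling the 10, the 5 and the 7 lower calls became 2, 1 and 3, and without wild-type replicate 1 the 5 and the 7 became 3 and 4.

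**Figure D3:**
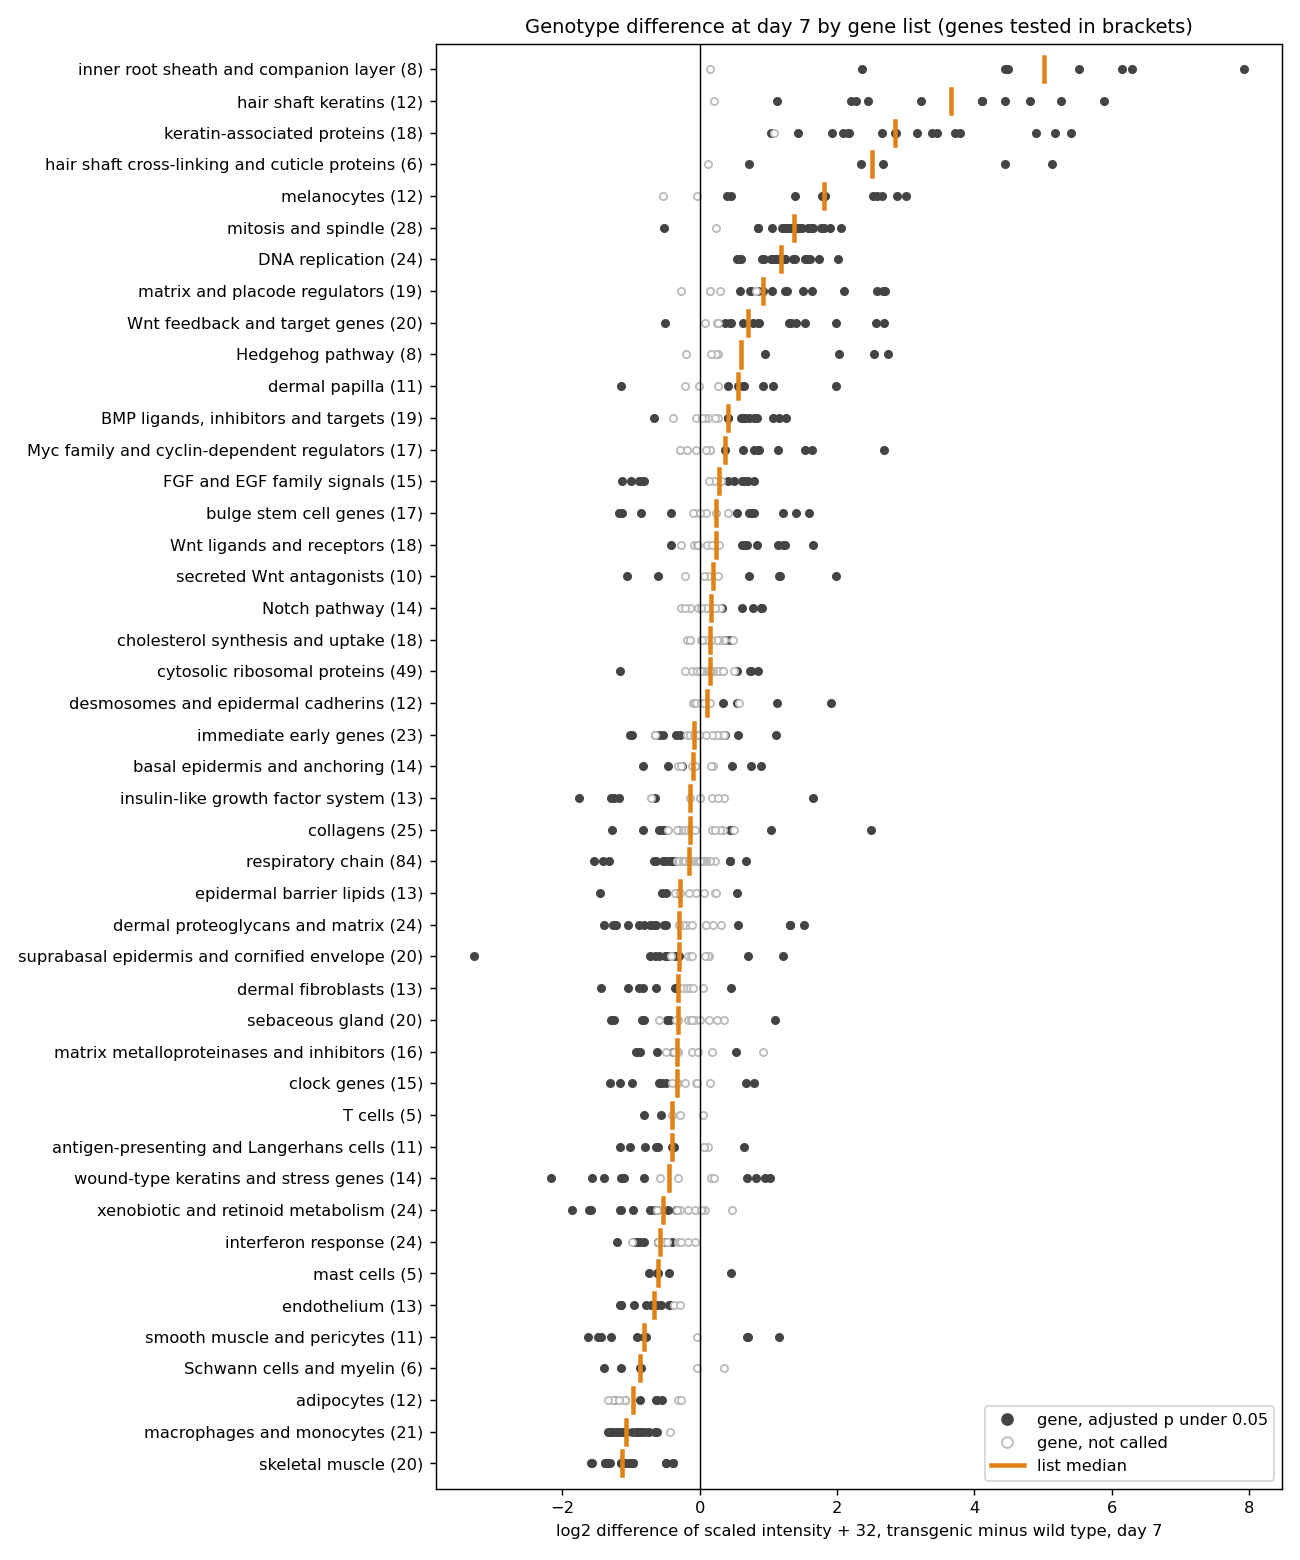
Difference in log2(intensity + 32), transgenic minus wild type at day 7, of every tested gene of the lists with at least 5 tested genes, ordered by the list median (bar), with filled points for genes called in limma at an adjusted p under 0.05 and open points for the others. Hair follicle, pigment and cell cycle lists lie to the right, and muscle, macrophage, adipocyte and vessel lists to the left.

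Among immune cell genes, those of macrophages were mostly lower in transgenic skin. Of 21 tested markers of macrophages and monocytes 20 fell and none rose (median -1.07), where 21.0% of all genes fell. Mrc1, the mannose receptor of tissue macrophages, read 2108, 2111 and 3542 in transgenic skin, against 5671 and 5886 in wild-type skin (-1.19 ± 0.19, SE, adjusted p = 1.7e-04 in limma). Adgre1, the F4/80 antigen, read 669.6, 710.0 and 1108 in transgenic skin, against 2055 and 1901 in wild-type skin, and Fcgr3, an antibody receptor, 670.3, 691 and 1131 in transgenic skin, against 2097 and 1960.2 in wild-type skin. Transgenic replicate 3 was the highest transgenic array on each and still below wild type. The list mean of log2(intensity + 32) was 9.74 and 9.69 on transgenic replicates 1 and 2 and 10.38 on replicate 3, against 10.92 and 10.96 in wild-type skin. In wild-type skin both day 7 arrays stood above all day 0 arrays for 20 of the 21 genes, while in transgenic skin 19 of the 21 overlapped their day 0 arrays. The list mean in transgenic skin lay between 9.75 and 9.92 at day 0, 10.44 and 10.90 at day 1, and 9.69 and 10.38 at day 7. In wild-type skin it lay between 9.81 and 10.00 at day 0, 10.84 and 10.93 at day 1, and 10.92 and 10.96 at day 7. At day 7 wild-type skin thus stood above its day 0 range. Transgenic replicates 1 and 2 were near the transgenic day 0 range, and replicate 3, at 10.38, lay above that range and below wild type.

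Other immune lists were lower too, on fewer markers. Of 11 genes of antigen-presenting and Langerhans cells 7 fell and 1 rose. The class II genes H2-Ab1 and H2-Eb1 fell by 0.79 and 0.63, whereas Cd207, langerin, which defines Langerhans cells, did not pass the test (0.06), and Epcam, which Langerhans cells share with follicle epithelium, was the one that rose (0.65). Without further scaling, and without wild-type replicate 2, the 7 became 4. Of 5 mast cell genes 4 fell, among them Cma1 (-0.73), and Kit, shared with melanocytes, rose. Those 4 became 2 without transgenic replicate 1 or 2, 1 without wild-type replicate 1 or without further scaling and 0 without wild-type replicate 2. Cd3e and Cd3g, subunits of the T cell receptor complex, fell by 0.81 and 0.56, 2 of 5 tested T cell genes, and the call of Cd3g was lost without wild-type replicate 1. The 2 became 1 without further scaling. Interferon response genes had 14 of 24 lower and none higher (median -0.57), with Ifih1, a sensor of viral RNA, at 375, 389.8 and 419 in transgenic skin, against 716 and 830.1 in wild-type skin. Those 14 became 5 without wild-type replicate 2, 7 without further scaling, 9 without transgenic replicate 1 and 8 without transgenic replicate 2.

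Skeletal muscle genes, from the panniculus carnosus under the dermis, were lower in transgenic skin. All 20 tested genes fell (median -1.12), 17 of them also without further scaling. Ttn, the giant spring protein titin, read 2887, 2729.6 and 3091 in transgenic skin, against 8177 and 6398 in wild-type skin (-1.31 ± 0.15, SE). Casq1, the calcium store protein calsequestrin, read 1517, 1215 and 1531 in transgenic skin, against 3661 and 3755 in wild-type skin. All 3 transgenic arrays were low, and 16 of the 20 genes lay below both transgenic day 0 arrays, while in wild-type skin 13 of 20 overlapped day 0. How much muscle each sample held was not recorded in the labels, and its part in the result was not tested. Endothelial genes had 11 of 13 lower and none higher (median -0.66), and the 11 became 7 without further scaling. Pecam1, the adhesion protein CD31, read 157, 146 and 202 in transgenic skin, against 349 and 361 in wild-type skin, and Vwf, von Willebrand factor, differed by -1.16. Of 11 smooth muscle and pericyte genes 7 fell and 3 rose. Rgs5, a pericyte marker, and Myh11, smooth muscle myosin, fell by 1.29 and 1.48, Tagln rose by 1.16, and Acta2 did not pass the test.

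Adipocyte and nerve genes were lower as well. Of 12 adipocyte genes 6 fell and none rose, with a median of -0.97. Adipoq, adiponectin, read 2053, 1798 and 2510.2 in transgenic skin, against 3479.9 and 5745 in wild-type skin, and Fabp4, a fatty acid carrier, 3460.4, 3132 and 3555 in transgenic skin, against 5101 and 7510.4 in wild-type skin. Lep, Retn, Thrsp and Pck1 differed by between -1.33 and -1.08 without passing the test. All 12 lay below both transgenic day 0 arrays at day 7 in transgenic skin, and 6 of 12 lay below all day 0 arrays in wild-type skin. Of 6 Schwann cell and myelin genes 4 fell, including Mbp, the myelin basic protein (-1.39 ± 0.25, SE).

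Dermal genes were mixed. Fibroblast markers had 7 of 13 lower and 1 higher, proteoglycan and matrix genes 11 of 24 lower and 4 higher, and collagens 6 of 25 lower and 4 higher, where 21.0% of all genes were lower and 19.5% higher. The collagen shares were near these. Without further scaling both collagen counts became 2 and the fibroblast rise was lost. Without wild-type replicate 1 the 11 and the 6 lower calls became 7 and 2, and without wild-type replicate 2 the fibroblast rise was lost. Dpt and Lum, small matrix proteins, fell by 1.05 and 0.63. Col11a1, a fibrillar collagen, went the other way and read 582, 562 and 661 in transgenic skin, against 69.1 and 92.6 in wild-type skin (2.49 ± 0.21, SE). Tnc, tenascin C, a matrix protein of growing and wounded tissue, read 307, 345 and 394 in transgenic skin, against 117 and 84.1 in wild-type skin. The dermal papilla list, the mesenchyme that the follicle signals to, had 7 of 11 higher and 1 lower (median 0.56), and Wif1, Bmp4, Bmp6, Fgf7 and Trps1 of those also belong to the lists above. Crabp1, a retinoic acid carrier, was the one that fell (-1.14), and Alpl, the alkaline phosphatase that marks the papilla, did not pass the test. Among insulin-like growth factor genes 5 of 13 fell and 1 rose. Igf1 read 1359, 1174 and 1616 in transgenic skin, against 3026 and 3233 in wild-type skin, Igfbp3 492, 449 and 492 in transgenic skin, against 1543 and 1834 in wild-type skin, and Igfbp2 rose by 1.65.

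Lists of xenobiotic metabolism, the respiratory chain and the clock held more called falls than rises, in counts that moved with the scaling. The lists of ribosomal proteins and of cholesterol synthesis and uptake did not. The cholesterol list had 3 of 18 higher, 16.7% beside 19.5% over all genes, and none lower. Those 3 became 0 without further scaling and without transgenic replicate 1 or 2, and 5 without transgenic replicate 3. Xenobiotic and retinoid metabolism had 15 of 24 genes lower and none higher (median -0.54). Aldh1a1, which makes retinoic acid, read 472, 374 and 469 in transgenic skin, against 1424 and 1314 in wild-type skin (-1.58 ± 0.14, SE). The 15 became 6 without further scaling and 9 without wild-type replicate 1. Of 84 respiratory chain genes 23 fell, a share near the 21.0% over all genes, and 3 rose. The 23 became 5 without further scaling and 9 without wild-type replicate 1, and the 3 became 1 under either scaling alternative and without transgenic replicate 1, transgenic replicate 3 or wild-type replicate 1. Its largest falls, Cox8b, Cox7a1 and Cox6a2 (-1.54, -1.41 and -1.32), are the subunit isoforms of heart and skeletal muscle. Of 49 ribosomal protein genes 7 rose, a smaller share than the 19.5% over all genes, and 1 fell. The 7 became 18 under quantile normalization, 13 with probe sets averaged and 3 without further scaling. The one that fell, Rpl3l, is likewise a muscle isoform (-1.16). Clock genes had 7 of 15 lower and 2 higher. Without further scaling the 7 became 3 and the 2 became 1, and the 2 also became 1 without transgenic replicate 2 or wild-type replicate 1 and 0 with a stricter filter. Nr1d1 and Dbp, both driven by the clock, differed by -1.30 and -1.15. The hour at which each mouse was sampled is not in the labels and its part in the result was not tested.

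The 20 largest falls came from several tissues, and the genotypes had reached them by different courses. In 14 of the 20 both wild-type day 7 arrays stood above all wild-type day 0 arrays, and in 9 of the 20 all transgenic day 7 arrays stood below both transgenic day 0 arrays. Krt2, a keratin of the upper interfollicular epidermis, had the largest fall and read 153, 217 and 74.8 in transgenic skin, against 1975 and 1328 in wild-type skin (-3.28 ± 0.32, SE, adjusted p = 1.6e-06 in limma). Wild-type skin had read 51.2, 57.6 and 45.2 at day 0, so its day 7 level was far above its own start, whereas transgenic skin had read 29.2 and 75.6 at day 0. Klk1, a tissue kallikrein, read 1213, 1101 and 1056 in transgenic skin, against 5549.7 and 4754 in wild-type skin (-2.16 ± 0.29, SE). At day 0 it was nearly silent in both, at 0.99 and 1.03 in transgenic skin and 2.02, 3.04 and 40.9 in wild-type skin, and by day 1 it had reached 1373, 3102 and 2153 in transgenic skin and 1633, 1764 and 1571 in wild-type skin. Its paralogues Klk1b27, Klk1b24 and Klk1b21 differed by -2.47, -2.20 and -2.03. They stood above day 0 in both genotypes as well, and since these genes are near-identical copies their probe sets may share signal.

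The other large falls differed in where day 7 stood against day 0. Fcgbp, a mucus-type IgG-binding protein, read 969.8, 906 and 1293 in transgenic skin, against 4982 and 4593 in wild-type skin (-2.16 ± 0.14, SE), and transgenic skin had been at 4570.4 and 4233 at day 0. Pon1, paraoxonase 1, read 45.5, 34.6 and 53.5 in transgenic skin, against 322 and 596 in wild-type skin, and Cd7, a lymphocyte receptor, 33.2, 10.9 and 30.9 in transgenic skin, against 261 and 255 in wild-type skin. Cyp2e1, a cytochrome P450 of fat and liver, stood below its day 0 arrays in both genotypes. It read 304, 319.9 and 448 in transgenic skin, against 1339.6 and 1376 in wild-type skin, with day 0 means of 4928 in transgenic and 4652 in wild-type skin. Cfp, the complement factor properdin, and Anxa3, Myo1f and Ccl24, genes of myeloid cells, differed by -1.88, -1.82, -1.85 and -1.81 and stood above day 0 in wild-type skin. In transgenic skin Cfp stood below day 0, and the other three overlapped it. The calls of Ccl24 and Myo1f were lost without wild-type replicate 1, and that of Ccl24 also without transgenic replicate 2. Cmya5, Flnc, Xirp1, Csrp3 and Mybph, genes of striated muscle, differed by between -2.10 and -1.81. Flnc and Xirp1 stood below day 0 in transgenic and above it in wild-type skin, Cmya5 stood below it in both, Csrp3 overlapped it in both, and Mybph overlapped it in transgenic and stood above it in wild-type skin. Xist, the inactive X chromosome transcript, was high on all 5 arrays (7272, 8116 and 6959.5 in transgenic skin and 5855 and 6607 in wild-type skin).

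**Figure D4:**
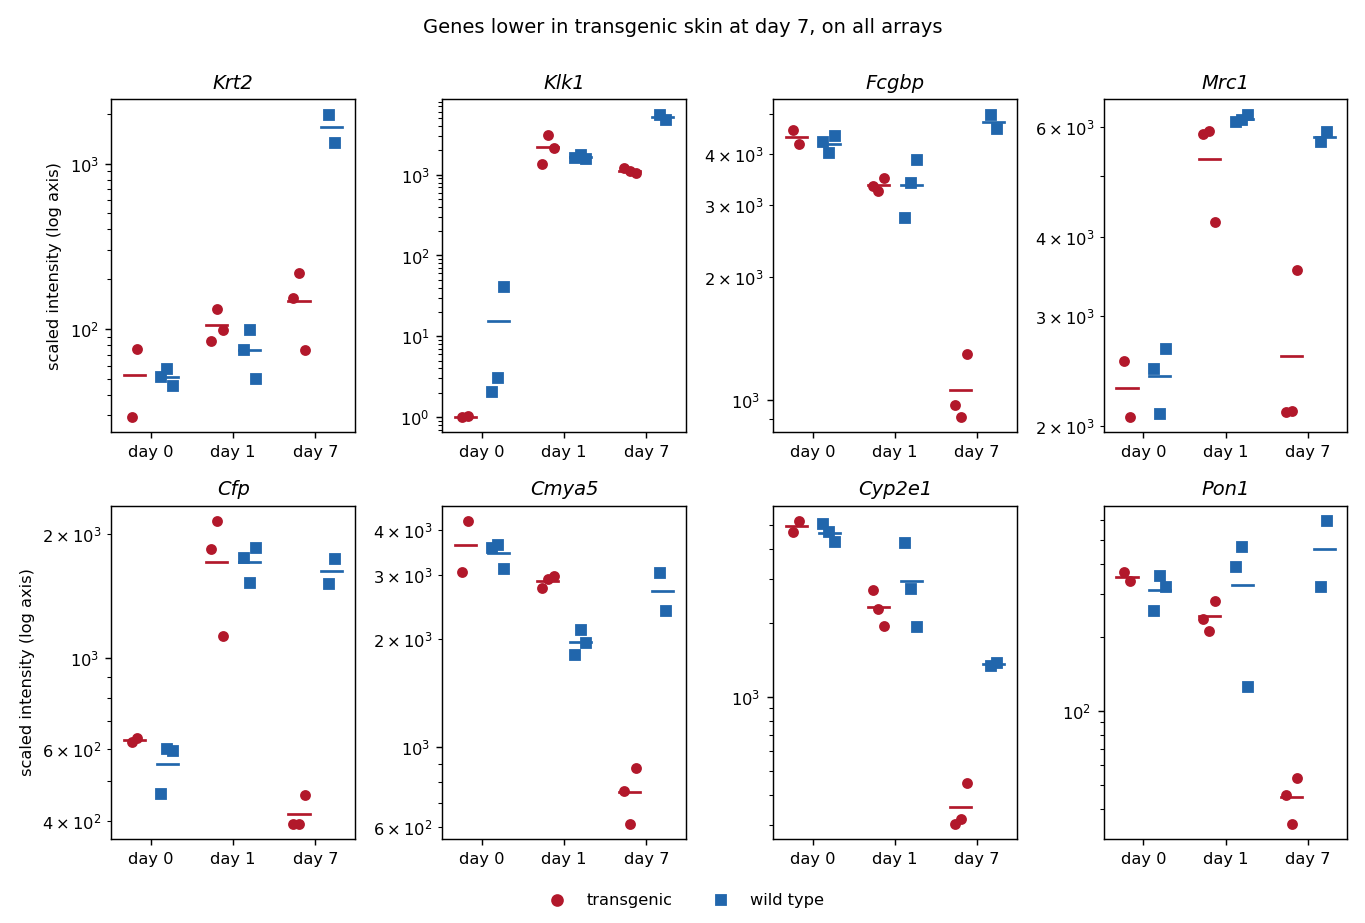
Scaled intensity of 8 genes that were lower in transgenic skin at day 7, on all 16 arrays, on a log axis, by genotype and day, with a point for each array and a line at each group's mean. Krt2 and Klk1 are far above day 0 in wild-type skin at day 7, Mrc1 and Cfp are high in both genotypes at day 1 and in wild type alone at day 7, and Fcgbp, Cmya5 and Pon1 are low in the transgenic day 7 arrays.

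**Figure D5:**
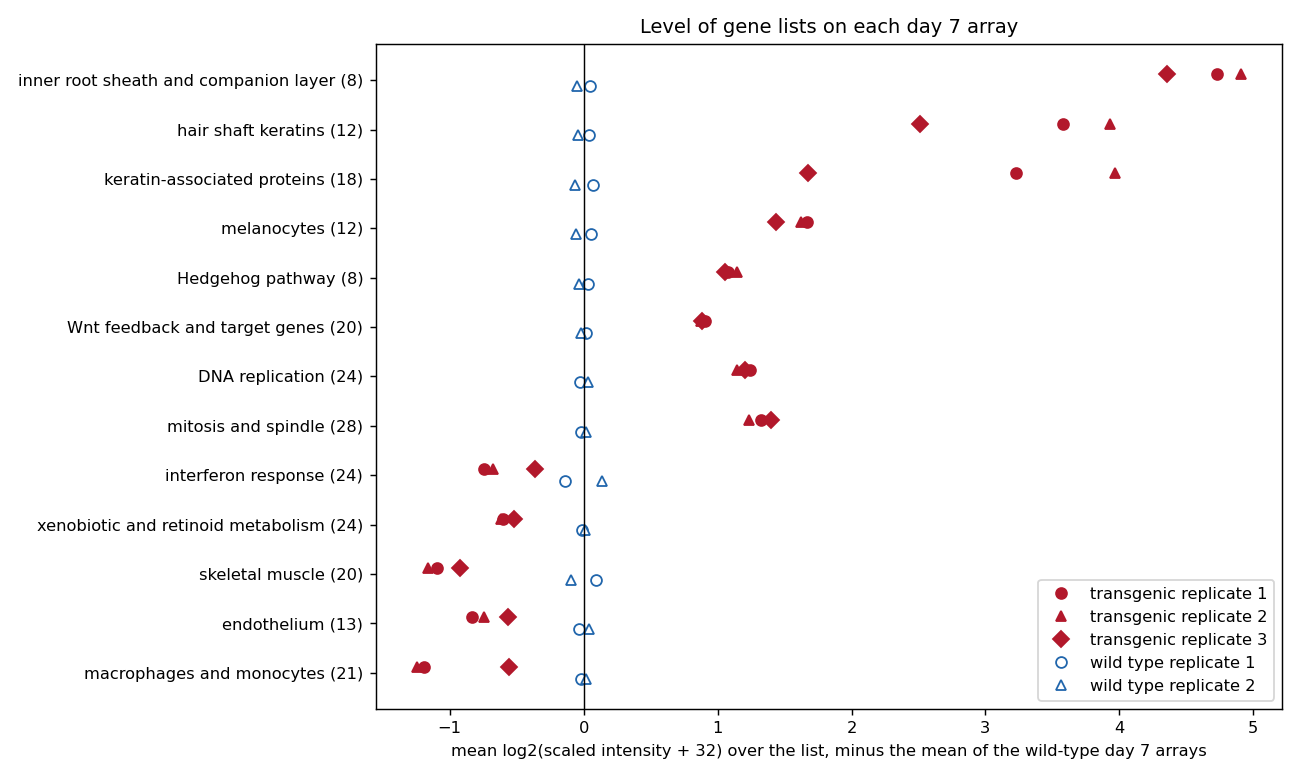
Mean log2(intensity + 32) of 13 gene lists on each of the 5 day 7 arrays, as the difference from the mean of the 2 wild-type arrays, with the number of tested genes in brackets. Transgenic replicate 3 (diamonds) lies nearer to wild type than the other transgenic arrays for the inner root sheath, shaft keratins, keratin-associated proteins and melanocytes. The same holds for interferon response genes, skeletal muscle, endothelium and macrophages. For Hedgehog, Wnt and cell cycle lists it lies with the other transgenic arrays.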

How the data were processed

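Total skin RNA had been hybridised to 1-colour Affymetrix Mouse Expression Set 430 A arrays, 16 in all. The deposited table holds linear intensity values for 22690 probe sets, per the labels, and the software that made them was not stated there. Each array was scaled to a common mean after trimming 2% at each end, 32 was added and log2 taken. A probe set was kept if 2 or more arrays had it over their own 40th percentile (15058 were), control probe sets left out, and genes named through GEO's platform annotation, the brightest probe set with 1 symbol standing for its gene, which left 9058 genes. limma 3.58.1 in R 4.3.3 fitted 6 group means with 10 residual degrees of freedom, a variance trend and Benjamini-Hochberg adjustment. Standard errors are those of limma. No arrays held identical values, and precision is limited by how few arrays there are. Steps were checked on simulated data.

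The comparison, the 49 gene lists and the rules were chosen with earlier results of these data known. Genes were named as the 20 largest rises and the 20 largest falls among called genes whose groups did not overlap, the up to 5 list members with the smallest p (or 2 brightest where none was called) and a fixed set. Other members are named to complete a list. The replicate numbers recur in each group, and deviations of same-numbered day 7 arrays from their group means correlated at -0.047 and -0.114. With 2 wild-type arrays those deviations mirror each other, so the correlations cannot decide whether the numbers pair the arrays. The labels do not say. Tried alternatives were quantile normalization, no further scaling, other added values, filters and probe set rules, other variance settings, a replicate block, a fit of the compared groups alone and each array left out in turn.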

Additional observations from a re-analysis of the deposited data

Results flagged for a closer look

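The genotype difference at day 7 was set against the genotype difference at day 0 in the same limma fit, by its interaction term, for the 56 genes of the largest rises, the largest falls and the fixed set. It differed at an adjusted p under 0.05 for 47 of them. The values below are the log2 difference between genotypes at day 7 minus that at day 0, so that a positive value means that transgenic skin gained relative to wild-type skin. Among hair follicle keratins the changes were Krt25 8.04, Krt27 6.15, Krt71 5.95, Krt33a 5.92, Krt35 5.43, Krt34 4.99, Krt72 4.67, Krt31 4.52, Krt86 3.86 and Krt33b 3.95. Among keratin-associated proteins they were Krtap8-1 5.23, Krtap3-1 5.16 and Krtap4-16 5.30. For the other large rises they were Tchh 5.17, S100a3 5.32, Gnmt 4.80, Padi3 4.33, Gjb2 4.01, Gprc5d 4.81 and Crym 3.99. For genes of signalling, the cell cycle and stem cells, and for the β-catenin gene itself, they were Ptch1 2.73, Mycn 2.32, Gli1 2.48, Mki67 1.87, Ccnd1 1.69, Lgr5 1.27, Sox9 0.73 and Ctnnb1 0.39.

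Values below 0, where transgenic skin lost relative to wild-type skin, were found for epidermal and kallikrein genes, with Klk1b21 -2.17, Sprr1b -2.42, Klk1 -1.74, Klk1b24 -2.15, Klk1b27 -2.93 and Krt2 -3.25. They are changes of the genotype difference and not of the level, since the kallikrein genes stood above day 0 in both genotypes. Genes of striated muscle changed by Csrp3 -1.65, Cmya5 -1.88, Xirp1 -2.25 and Flnc -2.0, and genes of myeloid cells by Anxa3 -1.70, Myo1f -2.09 and Cfp -2.08. The remaining ones were Cd34 -1.12, Tmem45b -1.85, Cyp2e1 -1.94, Fcgbp -2.22, Cd7 -2.39 and Pon1 -2.81. Both genotypes had been treated for the same time at day 7, and day 0 skin had received none of the drug.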

How the results depend on the processing

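Of the 246 named genes 243 were called at day 7, and 190 of these kept their call and direction under every alternative that tested them. The setting that mattered most was the scaling. Without further scaling of the deposited values 1744 genes were called in place of 3669, 873 higher and 871 lower. The genotype difference then changed from day 0 for 724 genes in place of 2154, with 38.8% of them upward in place of 50.9%, and from day 1 for 821 in place of 2658, with 59.0% upward in place of 48.4%, and the median of all genes moved to -0.10 and 0.10 for these changes. Ugcg, a ceramide glucosylating enzyme, reversed to -0.011 (adjusted p = 0.93 in limma) when probe sets were averaged. Axin2 lost its call under 11 alternatives, among them every array left out in turn, and Lfng under 8. Xist passed the threshold under quantile normalization alone (0.32, adjusted p = 0.045 in limma). With 1 array left out in turn the day 7 count lay between 2526 and 3574, the change from day 0 between 1461 and 2360, and the change from day 1 between 1782 and 2727, and with 1 wild-type array left its spread is taken from the other groups. With a replicate block the counts were 3567, 1953 and 2569, and 2 named genes, Axin2 and Lfng, lost their call. Of 1246 pairs of a list count and an alternative 132 moved by more than 1.5 times; the cause was not tested. Dim genes such as Lef1, Shh and Edar were left out by the filter on low values, and without it 12393 genes were tested and 3708 called.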
